A study of Rattus norvegicus with 32 samples.

Results

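The major histocompatibility complex (MHC) and antigen presentation genes were followed in the transcriptome of rat liver sinusoidal endothelial cells (LSEC) across chronic liver disease. The set held 55 of the 32623 genes listed, namely every gene whose symbol starts with RT1-, the name of the rat MHC, and the 12 genes Cd74, B2m, Tap1, Tap2, Tapbp, Ciita, Nlrc5, Cd40, Cd80, Cd86, Cd274 and Erap1. Of the 43 RT1- genes, 32 were class I and related genes, 5 encoded class II alpha chains and 6 encoded class II beta chains. RT1-DMb and RT1-CE16 were each listed under 2 gene identifiers, so the 55 genes carried 53 symbols. RT1-M1-1-ps, RT1-M3-2-ps and RT1-P2-ps1 were at 0 in every library, and 46 of the 55 genes had enough counts to be tested against the healthy group.

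MHC class I molecules show peptides made inside the cell to CD8+ T cells. They consist of a heavy chain and beta-2 microglobulin, and their peptides are pumped into the endoplasmic reticulum by the TAP1 and TAP2 transporter and loaded with the help of tapasin. MHC class II molecules show peptides from material that the cell has taken up to CD4+ T cells. Their alpha and beta chains assemble on the invariant chain encoded by Cd74, and DM and DO control the exchange of peptide in the endosome. CIITA and NLRC5 are the transactivators of the class II and class I genes, and both act through a promoter module of X and Y boxes. LSEC scavenge blood-borne antigen and are known to express both classes, and Kupffer cells, the resident macrophages of the sinusoid, and dendritic cells are known for high class II expression.

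RNA was sequenced from 22 LSEC preparations of male Wistar Han rats, 6 healthy and 5, 5 and 6 that had inhaled carbon tetrachloride (CCl4) for 2 weeks (acute injury), 6 weeks (fibrosis) and 12 to 14 weeks (cirrhosis), with phenobarbital in the drinking water of the CCl4 model. A second experiment with thioacetamide (TAA) held 5 libraries labelled as controls and 5 labelled as TAA controls. Its labels name Wistar Han rats whereas the design text and the methods name Sprague-Dawley rats, and the labels do not say which group received TAA, so that its groups are compared here only as labelled. LSEC were obtained after enzymatic digestion on a density gradient without sorting of single cells, and each library was taken as 1 rat. Depth ranged from 25646531 to 46464289 expected counts per library. Levels are given as CPM, that is counts scaled to library size, after TMM scaling, which was done separately for the 22 CCl4 libraries and for the 10 libraries of the TAA experiment. A gene was called higher or lower at an adjusted p under 0.05 in limma-voom, with Benjamini-Hochberg adjustment over all genes tested, and a fold above 1.5, and log2 fold changes are given ± SE.

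In these preparations the LSEC markers were lower in acute injury and fibrosis than in health, with 12 and 13 of 14 called lower and summed levels of 18847 to 35573 CPM in healthy, 4502 to 5264 in acute, 3246 to 4382 in fibrotic and 18507 to 24315 in cirrhotic libraries. Of a list of 17 immediate early and heat shock genes that respond to tissue handling, 16 and 15 were called lower in acute injury and fibrosis. Without TMM the median log2 fold change of all genes moved from -0.09, -0.03 and 0.07 in acute injury, fibrosis and cirrhosis against health to 0.32, 0.37 and 0.42. With that scaling the share of calls that were higher moved from 50.3% to 60.9% in fibrosis and from 52.2% to 71.3% in cirrhosis, and the MHC and antigen presentation genes were then called 3 higher and 33 lower in acute injury, 4 and 32 in fibrosis and 6 and 20 in cirrhosis.

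The class II genes fell in acute injury and fibrosis, rose again in cirrhosis and did not pass the test there against health. In acute injury 3 of the 46 tested MHC and antigen presentation genes were higher and 37 were lower, where 35.5% and 37.9% of all genes tested were called higher and lower. In fibrosis 2 were higher and 37 lower, against 35.3% and 34.9% of all genes. Among them were the 11 tested genes of class II and the invariant chain, each of which was lower at both stages, with a median log2 fold change of -2.92 in acute injury and -3.64 in fibrosis against -0.09 and -0.03 over all genes. In cirrhosis 4 of 46 were higher and 21 lower, against 27.1% and 24.7% of all genes, and none of the 11 class II and invariant chain genes was called (median 0.08). From fibrosis to cirrhosis 28 of 46 rose and 4 fell, against 34.3% and 29.5% of all genes, and all 11 class II and invariant chain genes were among those that rose (median 3.85). The 2 groups did not overlap for 47.8% of the tested MHC and antigen presentation genes in acute injury, 58.7% in fibrosis and 30.4% in cirrhosis. Over all genes these shares were 60.1%, 58.7% and 27.3%, and over class II and the invariant chain 90.9%, 100% and 0%. Between cirrhosis and fibrosis the 3 shares were 54.3%, 62.9% and 100%. Fewer cells of a type and less RNA per cell cannot be told apart in bulk libraries.

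Several of these promoters share short sequence that the choice of genes did not use. The RefSeq promoter windows of GRCr8, which run from 250 bases before to 50 bases after the transcription start in the BN/NHsdMcwi reference strain, held 38 of the 53 symbols. They were searched on both strands for the X1 box (CCNAGNNAC), the Y box (CTGATTGG), the interferon-stimulated response element (ISRE, GAAA and GAAA with any 2 bases between) and the kappaB site (GGGA and CCC with any 3 bases between). A Y box was found in 14 of the 38 windows, where 3.5% of all 33469 windows held one, and an X1 box in 15, where 17.7% of all windows did. RT1-Bb, RT1-CE16, RT1-CE4, RT1-Da, RT1-Db2, RT1-Ha and RT1-S3 held both, which 0.648% of all windows did. Only in RT1-Bb, RT1-Da and RT1-Ha did an X1 box precede the Y box with both in the direction of transcription. The only X1 match lay after the start in RT1-Db2 (19 to 27) and RT1-S3 (30 to 38), and downstream of the Y box in RT1-CE4. In RT1-CE16 it lay at -227 to -219 on the other strand and at 3 to 11. Windows of near-copy RT1- genes are not independent. An ISRE was found in B2m, Cd80, RT1-N3, RT1-S2, RT1-S3, Tap1, Tap2 and Tapbp, where 3.92% of all windows held one, and a kappaB site in 8 windows, where 5.57% did. The plain ATTGG core, which lies inside the Y box, was found in 27 of the 38 windows and in 37.5% of all windows.

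The windows of the main class II alpha and beta pairs, of RT1-S3 and of Tap1 are shown because these genes carry the class II and class I changes described here, with every match to the 4 motifs in capitals. RT1-Ba (chr20:4576807-4577106, plus strand), RT1-Bb (chr20:4604069-4604368, minus strand), RT1-Da (chr20:4515165-4515464, plus strand), RT1-Db1 (chr20:4560113-4560412, minus strand), RT1-S3 (chr20:2675278-2675577, plus strand) and Tap1 (chr20:4668494-4668793, minus strand) are written 5′ to 3′ in the direction of transcription.
RT1-Ba: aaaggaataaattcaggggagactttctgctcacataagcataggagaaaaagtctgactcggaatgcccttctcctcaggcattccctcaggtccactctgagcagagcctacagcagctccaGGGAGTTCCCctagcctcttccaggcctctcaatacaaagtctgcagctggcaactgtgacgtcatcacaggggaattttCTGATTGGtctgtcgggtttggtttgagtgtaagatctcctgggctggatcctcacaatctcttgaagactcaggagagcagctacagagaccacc
RT1-Bb: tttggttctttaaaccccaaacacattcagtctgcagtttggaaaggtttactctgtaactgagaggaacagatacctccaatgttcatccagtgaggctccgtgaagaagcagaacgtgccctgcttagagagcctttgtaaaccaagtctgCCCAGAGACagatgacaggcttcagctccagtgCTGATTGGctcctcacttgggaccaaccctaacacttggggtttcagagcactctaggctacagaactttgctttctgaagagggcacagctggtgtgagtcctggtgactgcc
RT1-Da: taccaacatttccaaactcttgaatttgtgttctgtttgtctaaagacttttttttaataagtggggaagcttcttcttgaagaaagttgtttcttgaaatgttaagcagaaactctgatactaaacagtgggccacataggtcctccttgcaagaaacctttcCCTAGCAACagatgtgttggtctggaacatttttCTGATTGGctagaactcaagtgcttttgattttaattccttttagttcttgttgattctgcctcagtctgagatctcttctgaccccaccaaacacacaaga
RT1-Db1: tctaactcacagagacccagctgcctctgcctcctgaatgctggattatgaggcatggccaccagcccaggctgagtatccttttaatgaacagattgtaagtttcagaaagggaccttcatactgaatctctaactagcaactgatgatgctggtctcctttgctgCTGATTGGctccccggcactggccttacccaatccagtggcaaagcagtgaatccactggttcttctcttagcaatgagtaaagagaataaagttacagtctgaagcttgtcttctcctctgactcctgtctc
RT1-S3: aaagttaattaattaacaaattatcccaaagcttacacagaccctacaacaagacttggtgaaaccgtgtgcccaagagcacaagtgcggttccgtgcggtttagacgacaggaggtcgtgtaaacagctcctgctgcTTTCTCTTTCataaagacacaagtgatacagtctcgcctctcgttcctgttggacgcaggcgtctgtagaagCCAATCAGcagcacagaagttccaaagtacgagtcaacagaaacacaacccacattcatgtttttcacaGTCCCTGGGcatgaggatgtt
Tap1: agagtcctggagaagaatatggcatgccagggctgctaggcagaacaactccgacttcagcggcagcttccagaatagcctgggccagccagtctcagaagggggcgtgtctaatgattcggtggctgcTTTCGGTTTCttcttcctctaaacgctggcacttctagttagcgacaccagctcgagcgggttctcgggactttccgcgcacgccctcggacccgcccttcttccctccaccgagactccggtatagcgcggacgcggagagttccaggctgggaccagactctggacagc
Counted from the start base as 1, the Y box lay at -46 to -39 in RT1-Ba, at -64 to -57 in RT1-Bb, at -52 to -45 in RT1-Da and at -83 to -76 in RT1-Db1. The X1 box lay upstream of it at -97 to -89 in RT1-Bb and at -86 to -78 in RT1-Da. These are matches of letters in a reference strain and no measurement of binding.

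Cd74 (ENSRNOG00000018735), the invariant chain that guides class II molecules to the endosome, ranged in the 6 healthy libraries from 396 to 3643 with a median of 1357 CPM. Its level was 245, 201, 179, 175 and 109.5 CPM in the acute libraries, 278, 90.4, 175, 81.9 and 31.5 CPM in the fibrotic libraries and 875 to 2560.3 with a median of 1793 CPM in the cirrhotic libraries. Every acute and fibrotic library lay below every healthy and every cirrhotic library, and the cirrhotic range lay inside the healthy range. The log2 fold change was -2.87 ± 0.53 in acute injury (adjusted p = 0.000342), -3.59 ± 0.67 in fibrosis (adjusted p = 0.000381) and 0.30 ± 0.53 in cirrhosis (adjusted p = 0.644). From fibrosis to cirrhosis Cd74 rose 15.4-fold (log2 3.95 ± 0.52, adjusted p = 1.96e-05).

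RT1-Ba (ENSRNOG00000000451) and RT1-Bb (ENSRNOG00000032708), the alpha and beta chains of the rat counterpart of HLA-DQ, also fell in both early stages. RT1-Ba ranged from 70.4 to 542 with a median of 217 CPM in healthy libraries, was 32.2, 32.9, 25.1, 28.5 and 17.6 CPM in acute and 38.1, 13.3, 24.7, 12.7 and 3.93 CPM in fibrotic libraries, and ranged from 138 to 392 with a median of 305 CPM in cirrhotic libraries. No acute or fibrotic library reached the lowest healthy or cirrhotic library. The log2 fold change of RT1-Ba was -2.95 ± 0.51 in acute injury (adjusted p = 0.000187) and -3.79 ± 0.66 in fibrosis (adjusted p = 0.000246), with 0.28 ± 0.50 in cirrhosis (adjusted p = 0.642), and it rose from fibrosis to cirrhosis by 4.14 ± 0.50 (adjusted p = 9.62e-06). RT1-Bb ranged from 54.0 to 448 with a median of 231 CPM in healthy libraries, was 25.7, 54.0, 18.6, 55.3 and 37.0 CPM in acute and 33.3, 19.1, 17.3, 27.1 and 7.82 CPM in fibrotic libraries, and ranged from 71.6 to 454 with a median of 156 CPM in cirrhotic libraries. The 2 highest acute libraries reached just above the lowest healthy library, whereas every fibrotic library lay below all healthy and cirrhotic ones. RT1-Bb had a log2 fold change of -2.43 ± 0.50 in acute injury (adjusted p = 0.000693), -3.27 ± 0.53 in fibrosis (adjusted p = 0.000142) and -0.40 ± 0.53 in cirrhosis (adjusted p = 0.528), and 2.92 ± 0.50 between cirrhosis and fibrosis (adjusted p = 0.000182).

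RT1-Da (ENSRNOG00000032844) and RT1-Db1 (ENSRNOG00000033215) encode the chains of the counterpart of HLA-DR. RT1-Da ranged from 172 to 1147 with a median of 469 CPM in healthy libraries and from 269 to 863 with a median of 641 CPM in cirrhotic libraries, and was 86.0, 75.4, 62.4, 71.3 and 41.1 CPM in acute and 95.7, 30.2, 58.7, 31.2 and 11.7 CPM in fibrotic libraries. The acute and fibrotic values again lay below every healthy and cirrhotic value. RT1-Da fell in acute injury (log2 fold change -2.84 ± 0.47, adjusted p = 0.000141) and fibrosis (-3.64 ± 0.61, adjusted p = 0.000169) and rose from fibrosis to cirrhosis (3.89 ± 0.49, adjusted p = 1.5e-05), with 0.19 ± 0.48 between cirrhosis and health (adjusted p = 0.747). RT1-Db1 ranged from 84.9 to 696 with a median of 242 CPM in healthy and from 114 to 364 with a median of 261 CPM in cirrhotic libraries, and was 35.4, 36.9, 27.4, 33.1 and 22 CPM in acute and 43.0, 15.4, 25.7, 13.7 and 6.10 CPM in fibrotic libraries. Its groups separated as those of RT1-Da did. RT1-Db1 had log2 folds of -2.92 ± 0.51 (adjusted p = 0.00023), -3.71 ± 0.64 (adjusted p = 0.000211) and -0.10 ± 0.51 (adjusted p = 0.871) in acute injury, fibrosis and cirrhosis, the last of which changed sign to 0.24 without TMM, and of 3.66 ± 0.46 between cirrhosis and fibrosis (adjusted p = 1.24e-05). RT1-Db2, a second beta chain gene of this locus, ranged from 5.35 to 44.1 CPM in healthy, 1.14 to 2.54 CPM in acute, 0.310 to 3.21 CPM in fibrotic and 6.74 to 24.1 CPM in cirrhotic libraries. Its log2 fold change was -3.14 ± 0.72 in acute injury (adjusted p = 0.00157), -3.87 ± 0.89 in fibrosis (adjusted p = 0.00174) and 4.02 ± 0.71 between cirrhosis and fibrosis (adjusted p = 0.000222).

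The genes of peptide exchange were lower in acute injury and fibrosis too. RT1-DMb, the beta chain of the DM molecule that exchanges the invariant chain fragment for peptide, ranged under the identifier ENSRNOG00000049491 from 22.9 to 133 with a median of 60.5 CPM in healthy and from 18.9 to 46.6 with a median of 38.8 CPM in cirrhotic libraries, and was 10.04, 8.60, 5.81, 13.1 and 3.66 CPM in acute and 7.44, 3.89, 4.55, 3.01 and 1.60 CPM in fibrotic libraries. No acute or fibrotic library reached a healthy or cirrhotic one. Its log2 fold change was -2.78 ± 0.51 in acute injury (adjusted p = 0.000313), -3.80 ± 0.57 in fibrosis (adjusted p = 7.89e-05) and -0.71 ± 0.42 in cirrhosis (adjusted p = 0.16). Under its other identifier, ENSRNOG00000051002, the 3 values were -2.49 ± 0.49, -3.54 ± 0.54 and -0.58 ± 0.40 (adjusted p = 0.000536, 8.55e-05 and 0.232). RT1-DOa (ENSRNOG00000026762), the alpha chain of the DM inhibitor DO, ranged from 2.41 to 22.7 with a median of 5.99 CPM in healthy and from 2.91 to 10.2 with a median of 5.83 CPM in cirrhotic libraries, and was 0.0812, 0.216, 0.191, 0.115 and 0.0318 CPM in acute and 0.535, 0.0613, 0.163, 0.113 and 0.0573 CPM in fibrotic libraries. All acute and fibrotic libraries were below 1 CPM, and the log2 fold change was -5.78 ± 0.86 (adjusted p = 5.97e-05) and -5.47 ± 0.90 (adjusted p = 0.000149), at counts so low that a few reads set the size. RT1-DOb, its beta chain, ranged from 1.87 to 10.9 CPM in healthy, 0.184 to 0.891 CPM in acute, 0.169 to 0.761 CPM in fibrotic and 2.18 to 12.7 CPM in cirrhotic libraries, with log2 folds of -3.51 ± 0.60, -3.46 ± 0.61 and 0.33 ± 0.49 against health (adjusted p = 0.000188, 0.00027 and 0.582).

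RT1-Ha, a low class II alpha gene, ranged from 0.326 to 2.71 CPM in healthy and from 0.598 to 1.66 CPM in cirrhotic libraries, had no count in any of the 5 acute libraries and reached 0 to 0.225 CPM in fibrosis. Against a floor of 3 counts per library (0.0691 to 0.0955 CPM) it was at least 15.5-fold lower in acute injury, and the class II median of -2.92 stayed as it was with RT1-Ha set at this bound. RT1-Ha was also called lower in fibrosis (-3.51 ± 0.89, adjusted p = 0.00331) and higher in cirrhosis than in fibrosis (3.70 ± 0.67, adjusted p = 0.000273). RT1-DMa, the alpha chain of DM, did not pass the filter on low counts and was at 0.105 to 2.93 CPM in healthy, 0.0546 to 0.271 CPM in acute, 0 to 0.325 CPM in fibrotic and 0.0528 to 2.63 CPM in cirrhotic libraries.

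**Figure D1:**
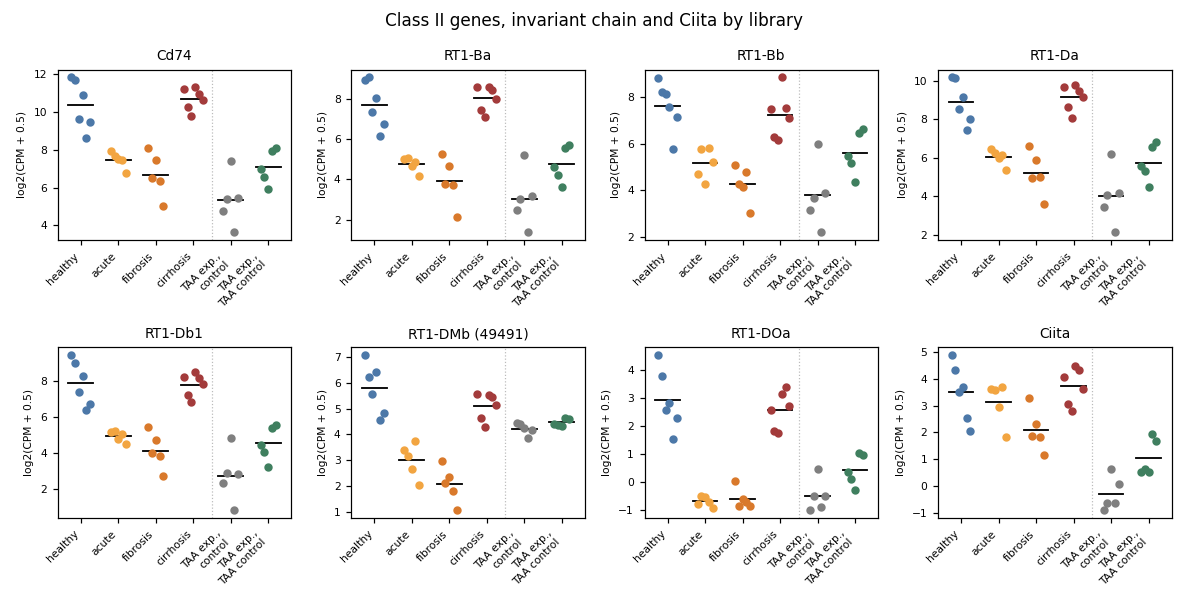
Level of 8 class II genes in each library as log2(CPM + 0.5) by group, with 1 point per library and a black line at the group mean, and with the TAA experiment scaled separately from the CCl4 experiment. For Cd74 and RT1-Da the acute and fibrotic points lie below all healthy and cirrhotic points, while Ciita overlaps in all 4 CCl4 groups.

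The macrophage and Kupffer cell markers moved in the same directions as the class II genes. Of 14 tested markers of these cells 12 were lower in acute injury and 12 in fibrosis, 2 of 15 were higher in cirrhosis than in health, and all 15 were higher in cirrhosis than in fibrosis. Their summed level was 738 to 4886 CPM in healthy, 163 to 330 CPM in acute, 75.1 to 349 CPM in fibrotic and 1509 to 4252 CPM in cirrhotic libraries. Clec4f, which defines Kupffer cells in the rat, had means of 495, 15.9, 12.8 and 412 CPM in the 4 groups, Csf1r, the macrophage growth factor receptor, had 329, 57.7, 18.7 and 221 CPM, and Timd4 was at 0 in the acute and fibrotic libraries. The ratio of the summed RT1- class II level to the summed macrophage level, a measure chosen after the values were seen, ranged from 0.321 to 1.47 in healthy, 0.637 to 0.785 in acute, 0.399 to 0.809 in fibrotic and 0.428 to 0.860 in cirrhotic libraries. The 4 ranges overlapped, with medians of 0.646, 0.728, 0.599 and 0.563, whereas the class II sum itself ranged from 443 to 3157 CPM in health and from 34.4 to 233 CPM in fibrosis. The ratio of the class II sum to the summed LSEC markers also overlapped across the 4 groups, at 0.0125 to 0.168 in healthy, 0.0248 to 0.0455 in acute, 0.0106 to 0.0622 in fibrotic and 0.0267 to 0.120 in cirrhotic libraries. Of 8 tested dendritic cell markers 4 were lower and 1, Itgax, was higher at each of the early stages. Their summed levels were 118 to 249.6 CPM in healthy, 169.6 to 709 CPM in acute, 123 to 388 CPM in fibrotic and 122 to 206 CPM in cirrhotic libraries. Most of the early sums was Itgax, with means of 329 CPM in acute and 220 CPM in fibrotic libraries. Of 5 tested B cell markers, which mark another class II positive type, 4 were lower at both early stages. Of the markers of T or NK cells 6 of 8 and 5 of 9 were lower in acute injury and fibrosis, and of the hepatocyte markers 8 and 4 of 8. Of the stellate cell and fibroblast markers 6 and 3 of 8 were lower, while Reln was higher at both stages and Col1a1 in fibrosis. The sum of this last list was higher at both stages. It was 279 to 785 CPM in healthy, 1313 to 2116 in acute and 1256 to 1672 CPM in fibrotic libraries. Most of it at these stages was the single gene Reln, with means of 1670 CPM in acute and 1351 CPM in fibrotic libraries. The part of the listed cell types, and of the lower LSEC and handling lists, in the class II and class I results was not tested.

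Both transactivators were called lower in fibrosis and rose from fibrosis to cirrhosis, and neither was called in cirrhosis against health. Ciita (ENSRNOG00000002659), the transactivator of class II genes, ranged from 3.70 to 28.9 with a median of 11.6 CPM in healthy libraries, was 11.8, 11.4, 7.12, 12.4 and 3.06 CPM in acute and 9.36, 3.19, 4.52, 3.01 and 1.75 CPM in fibrotic libraries, and ranged from 6.48 to 22 with a median of 13.9 CPM in cirrhotic libraries. The acute libraries lay within the healthy range except replicate 8, which was just under it. Its log2 fold change was -0.28 ± 0.54 in acute injury (adjusted p = 0.645, log2 fold change 0.087 without TMM and -0.67 with an adjusted p of 0.0365 in the fit with a replicate block), -1.39 ± 0.59 in fibrosis (adjusted p = 0.0497) and 0.26 ± 0.49 in cirrhosis (adjusted p = 0.671). The fibrosis call was narrow and ended with DESeq2 size factors (adjusted p = 0.0535), without TMM (0.124) and without the low-count filter (0.0527). From fibrosis to cirrhosis Ciita rose by 1.70 ± 0.49 (adjusted p = 0.00692), with overlapping libraries. Nlrc5 (ENSRNOG00000048222), the transactivator of class I genes, ranged from 24.7 to 66.6 with a median of 46.5 CPM in healthy libraries, was 6.55, 8.38, 12.8, 6.15 and 15.6 CPM in acute and 19.2, 10.2, 25.0, 10.7 and 9.05 CPM in fibrotic libraries, and ranged from 18.2 to 64.9 with a median of 47.2 CPM in cirrhotic libraries. Every acute library was below the healthy range, and 1 fibrotic library, replicate 15, reached into it. Nlrc5 fell in acute injury (log2 fold change -2.25 ± 0.31, adjusted p = 3.15e-05) and fibrosis (-1.61 ± 0.31, adjusted p = 0.000522), had -0.12 ± 0.31 in cirrhosis (adjusted p = 0.763), which changed sign to a log2 fold change of 0.22 without TMM, and rose from fibrosis to cirrhosis (1.56 ± 0.37, adjusted p = 0.00207).

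At each of the 3 stages most of the tested class I genes were lower than in health. Of 24 tested class I and related genes 19 were lower in acute injury, 18 in fibrosis and 18 in cirrhosis, where 37.9%, 34.9% and 24.7% of all genes were called lower, with median log2 fold changes of -2.02, -1.74 and -1.64 against -0.09, -0.03 and 0.07 over all genes. The libraries did not overlap with health for 33.3%, 54.2% and 50% of the 24 genes at the 3 stages, against 60.1%, 58.7% and 27.3% of all genes. Reads of RT1- genes are hard to assign, since the genes are near copies of each other and polymorphic between strains. Of the 40 RT1- genes with any count 35 had fractional expected counts, against 3 of the other 12 genes, so the value of a single RT1- gene is uncertain. The 3 were Tap1, Tap2 and Tapbp, with fractional counts in all 32 libraries, and their values carry the same limit. With the counts summed over all 32 class I and related genes, which does not depend on how reads are divided among them, the log2 fold change was -2.06 ± 0.33 in acute injury, -1.98 ± 0.23 in fibrosis and -1.75 ± 0.24 in cirrhosis (adjusted p = 0.000102, 1.07e-05 and 0.000155 in the limma-voom fit). From fibrosis to cirrhosis 10 of 24 rose and 4 fell, where 34.3% and 29.5% of all genes were called higher and lower, and the class I sum had a log2 fold change of 0.28 ± 0.13 (adjusted p = 0.0659). In cirrhosis against health 5 of 14 LSEC markers were lower and 1 was higher, and 7 of 9 stellate cell and fibroblast markers were higher, and their part in the class I result was not tested.

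RT1-A2 (ENSRNOG00000030712) and RT1-A1 (ENSRNOG00000038999) belong to the classical class I region, whose molecules present to CD8+ T cells. RT1-A2 ranged from 906 to 2810.3 with a median of 2158 CPM in healthy libraries, was 555, 518, 676, 340.1 and 1014 CPM in acute and 667, 578, 643, 408 and 548 CPM in fibrotic libraries, and ranged from 385 to 699.6 with a median of 478 CPM in cirrhotic libraries. Acute replicate 8 reached the lowest healthy library, and no fibrotic or cirrhotic library did. The log2 fold change of RT1-A2 was -1.61 ± 0.35, -1.62 ± 0.30 and -1.93 ± 0.30 in acute injury, fibrosis and cirrhosis (adjusted p = 0.00107, 0.000397 and 0.000264), with -0.26 ± 0.18 between cirrhosis and fibrosis (adjusted p = 0.206). RT1-A1 ranged from 225 to 784 with a median of 432 CPM in healthy libraries, was 85.4, 181, 114, 125 and 567 CPM in acute and 114, 228, 128, 232 and 209 CPM in fibrotic libraries, and ranged from 75.2 to 170.3 with a median of 97.5 CPM in cirrhotic libraries. Its median was lowest in cirrhosis, where no library overlapped the healthy ones. RT1-A1 had log2 folds of -1.28 ± 0.45 (adjusted p = 0.0197), -1.16 ± 0.31 (adjusted p = 0.00474) and -2.07 ± 0.29 (adjusted p = 0.000156), and fell further from fibrosis to cirrhosis (-0.85 ± 0.24, adjusted p = 0.00694). The acute call of RT1-A1 ended with edgeR (adjusted p = 0.0719), DESeq2 (0.0587) and without TMM (0.0624).

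RT1-S3 (ENSRNOG00000000777), RT1-T24-4 (ENSRNOG00000042905) and RT1-T24-3 (ENSRNOG00000045924) are non-classical class I genes, and all 3 fell at every stage and rose from fibrosis to cirrhosis. RT1-S3 ranged from 1055 to 1756 with a median of 1244 CPM in healthy libraries, was 119.6, 199, 225, 103 and 443 CPM in acute and 134, 186, 278, 174 and 160.1 CPM in fibrotic libraries, and ranged from 336 to 539 with a median of 444 CPM in cirrhotic libraries. The healthy libraries stood above all others, and the cirrhotic libraries above all fibrotic ones. RT1-S3 had log2 folds of -2.77 ± 0.33, -2.79 ± 0.21 and -1.63 ± 0.18 against health (adjusted p = 1.02e-05, 2.22e-07 and 6.98e-05) and rose from fibrosis to cirrhosis by 1.22 ± 0.17 (adjusted p = 4.16e-05). RT1-T24-4 ranged from 543 to 3422 with a median of 1497 CPM in healthy libraries, was 97.9, 80.7, 209, 53.7 and 267 CPM in acute and 126, 153, 233, 115 and 109.8 CPM in fibrotic libraries, and ranged from 264 to 868 with a median of 584 CPM in cirrhotic libraries. Acute and fibrotic libraries lay below the healthy ones, the highest acute library just reached the lowest cirrhotic one, and health and cirrhosis overlapped. Its log2 fold changes were -3.47 ± 0.49, -3.17 ± 0.39 and -1.44 ± 0.40 against health (adjusted p = 3.88e-05, 1.49e-05 and 0.00823). RT1-T24-3 ranged from 255 to 748 CPM in healthy, 7.46 to 112 CPM in acute, 21.6 to 116 CPM in fibrotic and 85.7 to 198 CPM in cirrhotic libraries, with log2 folds of -3.81 ± 0.63, -3.29 ± 0.41 and -1.98 ± 0.29 (adjusted p = 0.000141, 1.67e-05 and 0.000185).

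The most abundant class I genes of the C/E region moved alike with 1 exception. RT1-CE5 ranged from 445 to 1629 CPM in healthy, 156 to 479 CPM in acute, 217 to 325 CPM in fibrotic and 199 to 341 CPM in cirrhotic libraries, with log2 folds of -1.83 ± 0.36, -1.79 ± 0.30 and -2.07 ± 0.29 (adjusted p = 0.000482, 0.000159 and 0.000163). RT1-CE10 had -1.62 ± 0.39, -1.69 ± 0.25 and -2.05 ± 0.26 (adjusted p = 0.00216, 7.07e-05 and 0.000114). Fibrotic and cirrhotic libraries lay below all healthy libraries for both genes. RT1-CE4 had -1.18 ± 0.42, -0.77 ± 0.26 and -1.15 ± 0.25 (adjusted p = 0.0223, 0.0192 and 0.00222), and its acute and fibrosis calls ended without TMM (adjusted p = 0.0805 and 0.177). RT1-CE16 (ENSRNOG00000047706) ranged widely among healthy rats, from 139 to 1862 with a median of 655 CPM, and was called lower at each stage (-2.25 ± 0.68, -2.30 ± 0.54 and -2.85 ± 0.67, adjusted p = 0.00917, 0.00194 and 0.00351) with libraries that overlapped health each time. RT1-CE7 was lower in acute injury (-1.19 ± 0.37, adjusted p = 0.0109) and had -0.83 ± 0.38 and -0.74 ± 0.37 in fibrosis and cirrhosis (adjusted p = 0.0648 and 0.0975), which edgeR and DESeq2 both called. Outside the 10 most abundant, 2 low genes went the other way and were singled out after their values were seen. RT1-M2 was at 0.735 to 4.29 CPM in healthy and 5.09 to 14.6 CPM in cirrhotic libraries and rose in cirrhosis (2.07 ± 0.44, adjusted p = 0.00179), and RT1-M6-1 was at 0 to 0.586 CPM in healthy and 0.675 to 1.41 CPM in fibrotic libraries and was higher in acute injury (2.07 ± 0.76, adjusted p = 0.0244) and fibrosis (2.77 ± 0.63, adjusted p = 0.00171).

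The transporter and tapasin genes that supply and load class I peptides were called lower at each stage, with fractional expected counts in every library. Tap1 (ENSRNOG00000000457), a subunit of the peptide transporter, ranged from 463 to 2355 with a median of 1217 CPM in healthy libraries, was 92.7, 122, 131, 83.6 and 208 CPM in acute and 203, 112, 233, 123 and 113 CPM in fibrotic libraries, and ranged from 333 to 617 with a median of 553 CPM in cirrhotic libraries. Acute and fibrotic libraries lay below every healthy and cirrhotic library, and the cirrhotic libraries overlapped the healthy range at its lowest library. Tap1 had log2 folds of -3.17 ± 0.35, -2.81 ± 0.35 and -1.14 ± 0.32 (adjusted p = 5.43e-06, 1.71e-05 and 0.00864) and rose from fibrosis to cirrhosis by 1.73 ± 0.23 (adjusted p = 2.55e-05). Tap2 (ENSRNOG00000000455), the other subunit, ranged from 139 to 406 with a median of 334 CPM in healthy libraries, was 55.6, 66.7, 66.6, 55.3 and 106 CPM in acute and 92.1, 61.6, 94.8, 70.7 and 68.3 CPM in fibrotic libraries, and ranged from 95.8 to 117 with a median of 103 CPM in cirrhotic libraries. The healthy libraries stood above all others. Tap2 had log2 folds of -2.02 ± 0.27, -1.79 ± 0.25 and -1.45 ± 0.23 (adjusted p = 2.65e-05, 4.76e-05 and 0.000329), and 0.40 ± 0.12 between cirrhosis and fibrosis (adjusted p = 0.00788), which is under 1.5-fold. Tapbp (ENSRNOG00000029500), which encodes tapasin, ranged from 106 to 312 with a median of 293 CPM in healthy libraries, was 75.2, 74.8, 91.6, 83.3 and 115 CPM in acute and 91.1, 71.0, 129, 90.0 and 76.6 CPM in fibrotic libraries, and ranged from 83.1 to 115 with a median of 97.1 CPM in cirrhotic libraries. The lowest healthy library lay among the diseased ones. Tapbp had log2 folds of -1.32 ± 0.30, -1.22 ± 0.31 and -1.24 ± 0.28 (adjusted p = 0.00138, 0.00319 and 0.00255).

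B2m (ENSRNOG00000017123), the light chain of every class I molecule, ranged from 1998 to 3539.7 with a median of 2757 CPM in healthy libraries, was 2198, 2361, 2395, 1687 and 3079 CPM in acute and 2732, 2229, 2866, 1952 and 1767 CPM in fibrotic libraries, and ranged from 3148 to 4603 with a median of 4154 CPM in cirrhotic libraries. The first 3 groups overlapped, and 5 of the 6 cirrhotic libraries lay above every healthy library. Its log2 fold change was -0.17 ± 0.19 in acute injury and -0.14 ± 0.17 in fibrosis (adjusted p = 0.408 and 0.481), both of which changed sign without TMM (log2 fold changes of 0.24 and 0.26), and 0.55 ± 0.16 in cirrhosis (adjusted p = 0.0103), under 1.5-fold. B2m rose from fibrosis to cirrhosis (log2 0.75 ± 0.15, adjusted p = 0.000535). Erap1 (ENSRNOG00000009997), the aminopeptidase that trims class I peptides, ranged from 50.6 to 117 with a median of 60.4 CPM in healthy libraries, was 105, 105, 109, 112 and 98.0 CPM in acute and 94.2, 81.2, 83.6, 84.2 and 94.8 CPM in fibrotic libraries, and ranged from 96.9 to 114 with a median of 103 CPM in cirrhotic libraries. The highest healthy library reached all 3 diseased groups and the next one reached the fibrotic range, while the other 4 lay below every diseased library. Erap1 was called higher in acute injury (0.67 ± 0.21, adjusted p = 0.0115) and had 0.45 ± 0.21 in fibrosis (adjusted p = 0.071) and 0.57 ± 0.18 in cirrhosis (adjusted p = 0.0169), both under 1.5-fold.

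**Figure D2:**
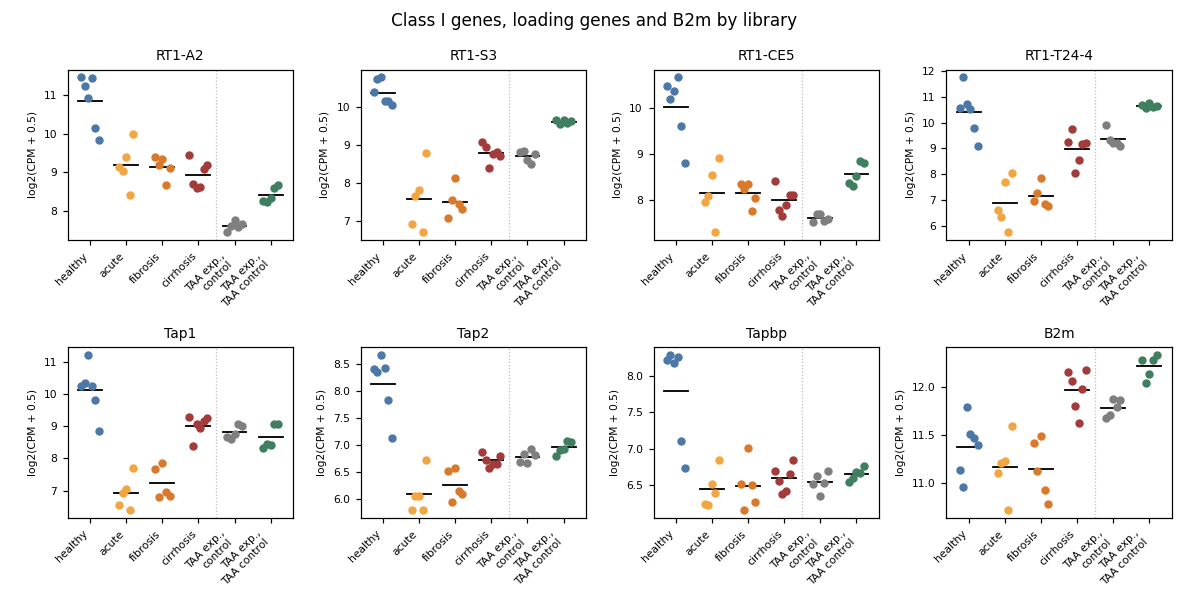
Level of 4 class I genes, the peptide loading genes Tap1, Tap2 and Tapbp, and B2m in each library as log2(CPM + 0.5) by group, with 1 point per library and a black line at the group mean, and with the TAA experiment scaled separately. Within the CCl4 experiment RT1-S3 and Tap2 are highest in the healthy libraries without overlap with the diseased ones, whereas the highest B2m levels are in cirrhosis.

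The costimulation and checkpoint genes did not move as 1 group. Cd40 (ENSRNOG00000018488), the receptor of T cell help, ranged from 27.0 to 106 with a median of 55.3 CPM in healthy libraries, was 6.33, 5.84, 7.01, 6.70 and 10.6 CPM in acute and 7.86, 8.09, 14.9, 8.67 and 8.28 CPM in fibrotic libraries, and ranged from 30.6 to 72.5 with a median of 44.9 CPM in cirrhotic libraries. Acute and fibrotic libraries stood below all others. Cd40 fell in acute injury (log2 fold change -2.83 ± 0.33, adjusted p = 8.7e-06) and fibrosis (-2.40 ± 0.33, adjusted p = 3.66e-05) and rose from fibrosis to cirrhosis (2.25 ± 0.26, adjusted p = 6.32e-06), with -0.21 ± 0.30 between cirrhosis and health (adjusted p = 0.566), which changed sign to a log2 fold change of 0.13 without TMM. Cd86 (ENSRNOG00000038835), a CD28 ligand, ranged from 4.23 to 15.5 with a median of 9.55 CPM in healthy libraries, was 3.76, 3.68, 3.71, 4.47 and 1.78 CPM in acute and 6.62, 1.75, 2.24, 1.83 and 0.544 CPM in fibrotic libraries, and ranged from 16.4 to 45.8 with a median of 25.5 CPM in cirrhotic libraries. Every cirrhotic library was above every other library of the CCl4 experiment. Cd86 fell in acute injury (-1.41 ± 0.37, adjusted p = 0.00382) and fibrosis (-2.16 ± 0.53, adjusted p = 0.00293) and rose above health in cirrhosis (1.46 ± 0.34, adjusted p = 0.00322).

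Cd80 (ENSRNOG00000001527), the other CD28 ligand, went the opposite way in the early stages. It ranged from 1.62 to 4.79 with a median of 1.83 CPM in healthy libraries, was 5.36, 4.68, 5.90, 4.22 and 5.29 CPM in acute and 6.85, 3.86, 5.11, 3.66 and 5.53 CPM in fibrotic libraries, and ranged from 1.74 to 15.5 with a median of 6.16 CPM in cirrhotic libraries. Of the healthy libraries 4 lay below all acute and fibrotic ones and the other 2 reached into their range. Cd80 rose in acute injury (1.12 ± 0.31, adjusted p = 0.00508), fibrosis (1.13 ± 0.33, adjusted p = 0.00739) and cirrhosis (1.41 ± 0.57, adjusted p = 0.0486), the last of which was lost in 10 of 12 fits that left out 1 library. Cd274 (ENSRNOG00000016112), the PD-1 ligand known as PD-L1, ranged from 102 to 252 with a median of 138 CPM in healthy libraries, was 44.7, 39.8, 51.7, 34.6 and 124 CPM in acute and 73.0, 75.6, 139, 62.0 and 70.1 CPM in fibrotic libraries, and ranged from 127 to 346 with a median of 268 CPM in cirrhotic libraries. Acute replicate 8 and fibrosis replicate 15 stood apart from their groups and reached the healthy range. Cd274 fell in acute injury (-1.41 ± 0.32, adjusted p = 0.00145) and fibrosis (-0.73 ± 0.25, adjusted p = 0.0189, or 0.189 as adjusted p without TMM) and rose above health in cirrhosis (0.76 ± 0.27, adjusted p = 0.0262) and against fibrosis (1.55 ± 0.27, adjusted p = 0.000219).

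**Figure D3:**
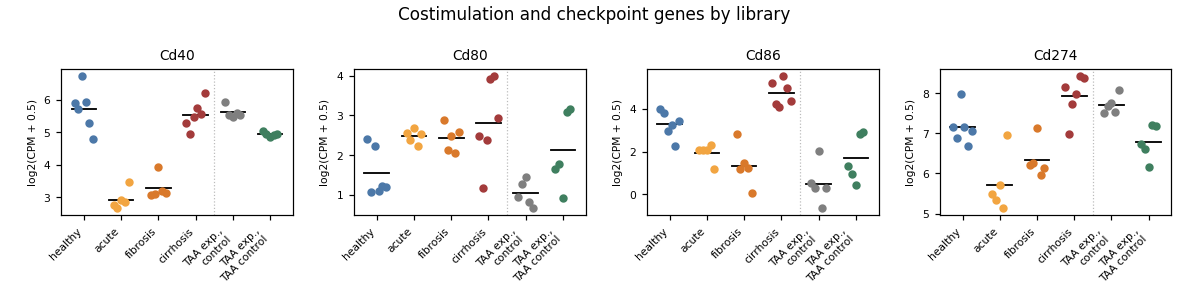
Level of Cd40, Cd80, Cd86 and Cd274 in each library as log2(CPM + 0.5) by group, with 1 point per library and a black line at the group mean, and with the TAA experiment scaled separately. Cd40 is low in acute injury and fibrosis without overlap, Cd80 is higher there than in most healthy libraries, and Cd86 is highest in cirrhosis.

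Other genes of antigen processing and of the signals upstream of it were read from a list of 49 symbols, of which 45 were found. In acute injury 8 of 42 tested were higher and 23 lower, in fibrosis 7 and 24 of 42, and in cirrhosis 8 and 11 of 43, with medians of -1.37, -1.11 and -0.15. Over all genes 35.5% and 37.9%, 35.3% and 34.9%, and 27.1% and 24.7% were called higher and lower, with medians of -0.09, -0.03 and 0.07. Psmb8, Psmb9 and Psmb10, the subunits of the immunoproteasome that cuts class I peptides, were lower at all 3 stages, with log2 folds of -1.65, -1.51 and -0.99 for Psmb8 (adjusted p = 0.000852, 0.00382 and 0.0141). Irf1, an interferon-responsive activator of class I and Ciita transcription, ranged from 3175 to 4973 CPM in healthy, 65.9 to 136 CPM in acute, 102 to 228 CPM in fibrotic and 1793 to 2842 CPM in cirrhotic libraries. Its log2 fold change was -5.45 ± 0.20, -4.74 ± 0.24 and -0.87 ± 0.17 (adjusted p = 1.77e-09, 1.1e-08 and 0.00126). Irf8, a factor of myeloid and dendritic cells, was lower by -3.75 ± 0.29, -3.02 ± 0.27 and -0.78 ± 0.27 (adjusted p = 2.69e-07, 1.2e-06 and 0.023). Ctss, the cathepsin that trims the invariant chain, and Ifi30, a lysosomal thiol reductase, were lower in acute injury and fibrosis and were not called in cirrhosis. Rfx5, a subunit of the factor that binds the X box, the chaperones Canx and Pdia3, Nfyb of the Y box factor, Creb1 and Jak2 were higher at all 3 stages, with 1.10 ± 0.19, 0.99 ± 0.18 and 0.67 ± 0.18 for Rfx5 (adjusted p = 0.000166, 0.000364 and 0.00809). From fibrosis to cirrhosis 20 of 44 rose, among them Irf1, Ctss and Psmb9, and 6 fell, where 34.3% and 29.5% of all genes did.

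The balance of the classes shifted with stage. The class I sum ranged from 5454 to 13254 CPM in healthy, 1358 to 4640.4 CPM in acute, 2042 to 2813 CPM in fibrotic and 2182.1 to 3674 CPM in cirrhotic libraries. The healthy libraries stood above all others, and the 3 diseased groups overlapped. The class II sum was 128 to 221 CPM in acute, 34.4 to 233 CPM in fibrotic and 649 to 2215 CPM in cirrhotic libraries, against 443 to 3157 CPM in health. The summed class II alpha counts had log2 folds of -2.89 ± 0.47, -3.70 ± 0.62 and 0.21 ± 0.49, and the summed beta counts of -2.68 ± 0.45, -3.55 ± 0.53 and -0.31 ± 0.48, in acute injury, fibrosis and cirrhosis (adjusted p = 0.000127, 0.000169 and 0.725, and 0.000154, 7.25e-05 and 0.591). Of all counts on RT1- genes, the share on class II was 5.90 to 20.5% in healthy, 2.69 to 14.0% in acute, 1.54 to 9.04% in fibrotic and 21.7 to 44.8% in cirrhotic libraries. The cirrhotic shares lay above those of every other library of the CCl4 experiment. Relative to the summed LSEC markers, the class I sum was 0.170 to 0.648 in healthy, 0.281 to 0.897 in acute, 0.558 to 0.677 in fibrotic and 0.0897 to 0.159 in cirrhotic libraries, so that by this ratio, also chosen after the values were seen, the cirrhotic libraries were the only CCl4 group below health.

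**Figure D4:**
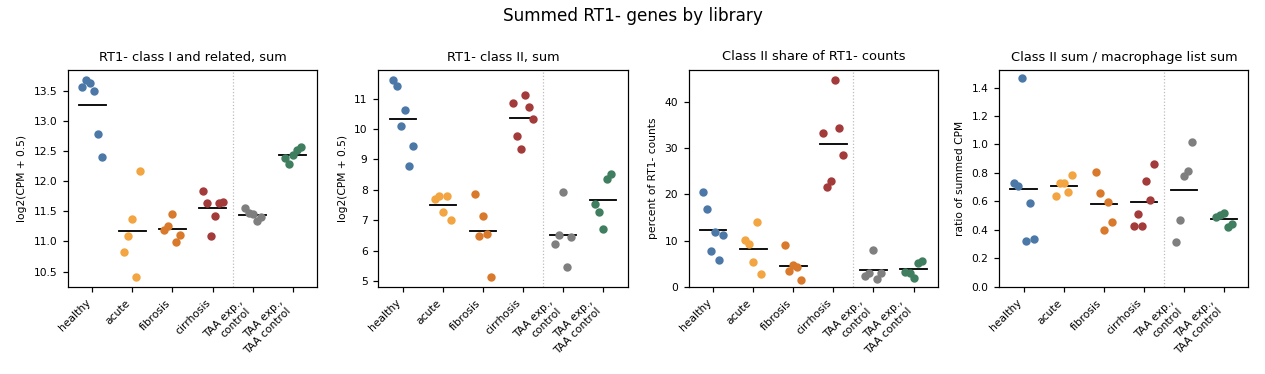
Summed class I level, summed class II level, class II share of all RT1- counts in percent, and the ratio of the class II sum to the macrophage marker sum, by group with 1 point per library. The class II share is highest in cirrhosis without overlap (21.7 to 44.8%), and the ratio to the macrophage markers overlaps across the groups of the CCl4 experiment.

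Between acute injury and fibrosis no difference was called among the 44 tested MHC and antigen presentation genes in limma-voom, where 10.2% and 0.732% of all genes were called higher and lower in fibrosis. At an unadjusted p under 0.05 with a fold above 1.5 there were 4, 2 higher and 2 lower, and edgeR and DESeq2 called 0 each. The 9 tested class II and invariant chain genes had a median log2 fold change of -0.76, with -0.68 ± 0.49 for Cd74 (adjusted p = 0.349) and -0.81 ± 0.47 for RT1-Ba (adjusted p = 0.238). Their fibrotic libraries spread more widely than the acute ones, with replicate 12 the highest and replicate 17 the lowest for Cd74, RT1-Ba and RT1-Db1. The count rested on acute replicate 8, without which 6 genes were called, Cd274, Cd40 and RT1-CE6 higher (log2 1.02, 0.60 and 1.78) and Ciita and both RT1-DMb entries lower (-1.41, -1.24 and -1.32) in fibrosis.

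In the TAA experiment the libraries labelled TAA control had higher class I levels than those labelled control. Of the 42 tested genes 27 were higher and 2 lower, against 12.7% and 14.9% of all genes, and 19 of 22 tested class I and related genes were among the higher ones, with a median log2 difference of 0.93 against 0.03 over all genes. RT1-S3 was 448, 458, 387, 362 and 431 CPM in the control and 811, 746, 808, 766 and 790.5 CPM in the TAA control libraries, and RT1-T24-3 was 54.6, 44.0, 32.4, 25.3 and 31.1 CPM and 215, 164, 219, 224 and 230.1 CPM. Neither gene overlapped between the groups, which held for 90.9% of the 22 class I and related genes and for 35.1% of all genes. The log2 difference was 0.91 ± 0.075 for RT1-S3 (adjusted p = 1.57e-05) and 2.53 ± 0.18 for RT1-T24-3 (adjusted p = 9.66e-06). The summed class I counts differed by 0.995 ± 0.080 (adjusted p = 1.42e-05), while Tap1, Tap2, Tapbp, B2m and Erap1 were not called. Beside this, 6 of 8 T or NK cell markers, 14 of 17 handling genes and 5 of 14 LSEC markers were higher, and 6 of 8 hepatocyte and 7 of 9 stellate cell and fibroblast markers were lower, in the TAA control libraries, and their part was not tested. Cd274 was 180.3, 205, 216, 183 and 268 CPM in the control and 107, 96.6, 71.2, 147 and 146 CPM in the TAA control libraries, without overlap, and was lower in the latter (-0.93 ± 0.20, adjusted p = 0.00341). Cd40 was 60.1, 46.1, 43.8, 47.7 and 46.0 CPM and 32.3, 30.5, 28.6, 29.5 and 30.2 CPM, also without overlap (-0.68 ± 0.085, adjusted p = 0.000136).

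The class II genes were low in both groups of the TAA experiment. Cd74 was 26.9, 42.1, 169.9, 11.9 and 42.6 CPM in the control and 126, 94.1, 59.2, 246 and 275 CPM in the TAA control libraries. The groups overlapped, since control replicate 3 was the highest of its group and TAA control replicates 14 and 15 the highest of theirs. Of 9 tested class II and invariant chain genes 7 were called higher in the TAA control libraries, with 1.79 ± 0.64 for Cd74 (adjusted p = 0.0378). Every one of the 9 overlapped between groups, where 35.1% of all genes did not. For Cd74, RT1-Ba, RT1-Bb, RT1-Da, RT1-Db1 and RT1-DOa the call was lost with edgeR and with DESeq2 (adjusted p = 0.0892 and 0.0799 for Cd74), and for Cd74 it was lost in 7 of 10 fits without 1 library. Ciita was 0.0358, 0.142, 1.05, 0.138 and 0.556 CPM and 0.924, 1.05, 0.927, 3.32 and 2.69 CPM, with 1 control library, replicate 3, in the upper range (2.60 ± 0.75, adjusted p = 0.0141). The summed macrophage markers were 231, 191, 312, 53.8 and 84.5 CPM in the control and 375, 302, 202, 772 and 819 CPM in the TAA control libraries, with the same replicates highest as for Cd74, and the part of these cells was not tested. TAA control replicates 14 and 15 gave a chi-square per degree of freedom of 3.05. The next lowest pair of their group gave 27.6, and the lowest in the other 5 groups was 25.2. The 2 libraries differed by more than sampling noise and were kept as 2 samples, but this cannot show that they came from 2 rats. Without either of them 22 genes were called in place of 29, and without control replicate 4 there were 21. RT1-N2 reached 0.158 CPM and RT1-Db2 0.181 CPM at most in the 10 libraries of this experiment. In the CCl4 experiment they ranged from 0.0921 to 215 and from 0.310 to 44.1 CPM. Strain and experiment cannot be told apart.

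The class II genes varied among the healthy rats. The SD of log2(CPM + 0.5) over the 6 healthy libraries was 1.31 for Cd74, with medians of 1.12 over the 5 class II alpha genes, 1.02 over the 6 beta genes and 0.698 over 24 class I and related genes, against a median of 0.447 over the 15578 genes kept. Healthy replicates 1 and 2 were the highest and replicate 5 the lowest for Cd74, RT1-Ba and RT1-Db1. Healthy replicate 3 was instead the highest for Cd274, Cd40, Tap1 and RT1-S3. Among the acute libraries replicate 8 was the lowest for Cd74, RT1-Ba, RT1-Db1 and Cd86 and the highest for RT1-A2, RT1-S3, Tap1, Cd40 and Cd274. Its macrophage marker sum, 163 CPM, was the lowest of the acute group. Elsewhere the order of this sum was near that of Cd74 but not the same. Healthy replicates 1, 2 and 4, fibrosis replicates 12 and 15 and cirrhosis replicates 1, 4 and 5 were the highest of their groups for both. In health the sum was highest in replicate 4 and lowest in replicate 3 (4886 and 738 CPM). In fibrosis it was highest in replicate 15 and, as for Cd74, lowest in replicate 17 (349 and 75.1 CPM). In cirrhosis it was highest in replicate 1 and lowest in replicate 6 (4252 and 1509 CPM), and Cd74 in replicates 4 and 3.

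**Figure D5:**
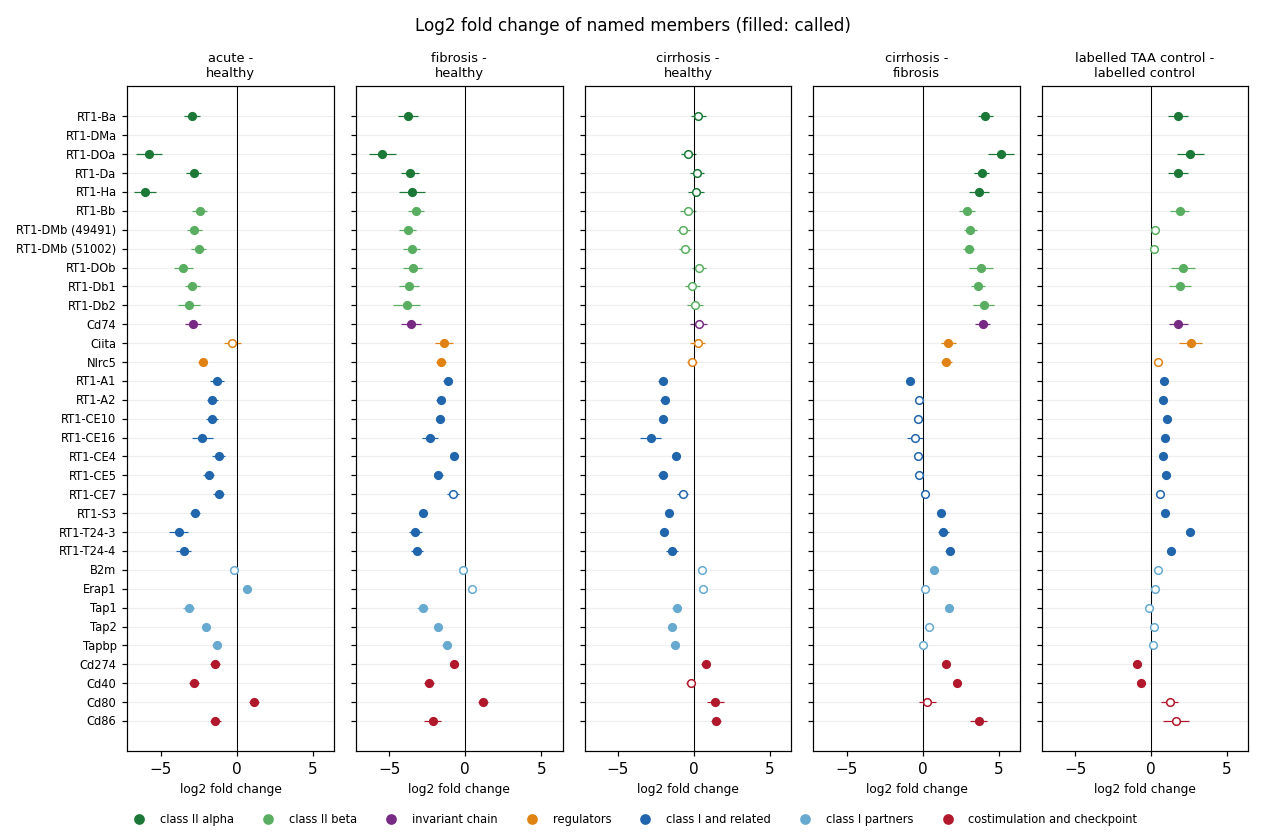
Log2 fold change with SE of the 33 named genes in 5 comparisons, with filled symbols for called differences and a line at 0. The class II genes lie left of 0 in acute injury and fibrosis, around 0 in cirrhosis against health and right of 0 in cirrhosis against fibrosis, while most class I genes lie left of 0 at each of the 3 stages.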

How the data were processed

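RNA-seq of 32 rat LSEC libraries was used, 22 of the CCl4 and 10 of the TAA experiment. STAR, with Rnor_6.0 as genome, and then RSEM were run by the authors on stranded poly(A) reads, and the deposited values are expected counts per gene, whose tool versions are not given in the sources used here. Fractional counts arise where reads match several genes, as among RT1- copies, and were not limited to RT1- genes. The expected counts were rounded, filtered with filterByExpr and scaled by TMM within each comparison of 2 groups, and tested with limma-voom (limma 3.58.1, edgeR 4.0.16, R 4.3.3) with Benjamini-Hochberg adjustment over all genes tested. A call needed an adjusted p under 0.05 and a fold above 1.5. This replaced the unadjusted p of the study, which was run as an alternative. Totals of 25646531 to 46464289 expected counts per library set the depth. Each library was taken as 1 rat, which could not be shown for TAA control replicates 14 and 15. The p-values measure the spread between libraries.

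Groups came from the sample labels. Values in the text are given for the 12 genes without an RT1- symbol, all RT1- class II genes and the 10 other RT1- genes with the highest mean CPM in the CCl4 libraries. The members and all gene lists were chosen with earlier results of these data known. Plots use log2(CPM + 0.5). Alternatives were edgeR, DESeq2 (1.42.0), other size factors, other low-count filters, other thresholds, a replicate block, summed classes and leaving out each library. The fits were tested on simulated data. Promoter windows came from a RefSeq table of GRCr8, matched by symbol, and Python 3.11.15 was used for motifs and plots (matplotlib 3.10.9). The files' own coordinates were not used.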

Additional observations from a re-analysis of the deposited data

Results flagged for a closer look

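In 12 of 189 combinations of a named gene and a group of 5 or 6 libraries, 1 library stood apart from the others by its gap relative to the range of the group, where chance gives about 1 in 20, or 9.45. Acute replicate 8 was highest for Tap2 (106 CPM, others 55.3 to 66.7) and lowest for Cd86 (1.78 CPM, others 3.68 to 4.47). Fibrosis replicate 15 was highest for Cd274 (139 CPM, others 62.0 to 75.6) and for Cd40 (14.9 CPM, others 7.86 to 8.67). Fibrosis replicate 12 was highest for RT1-DOa (0.535 CPM, others 0.0573 to 0.163). Healthy replicate 3 was highest for Cd274 (252 CPM, others 102 to 143). Cirrhosis replicate 2 was lowest for Tap1 (333 CPM, others 489.5 to 617) and highest for RT1-T24-3 (198 CPM, others 85.7 to 116). Cirrhosis replicate 5 was highest for RT1-DMa (2.63 CPM, others 0.0528 to 0.261). In the TAA experiment control replicate 1 was highest for Cd40 (60.1 CPM, others 43.8 to 47.7) and for RT1-T24-4 (964 CPM, others 547 to 635). TAA control replicate 12 was lowest for RT1-T24-3 (164 CPM, others 215 to 230.1).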

How the results depend on the processing

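Over the alternatives the number of called members stayed within 1.5 times the count reported for each comparison except fibrosis against acute injury. There the count of 0 became 1 without the low-count filter (RT1-Ha, log2 2.54) and 4 at an unadjusted p, and ranged from 0 to 6 with 1 library left out (6 without acute replicate 8). With 1 library left out the counts were 36 to 41 in acute injury, 35 to 39 in fibrosis, 23 to 26 in cirrhosis, 32 to 33 in cirrhosis against fibrosis and 21 to 31 in the TAA experiment. Replicate numbers of different rats do not pair them: deviations of same-numbered libraries correlated from -0.24 to 0.29 for cirrhosis and health and from 0.033 to 0.19 for acute injury and health. With the replicate block 43 members were called in acute injury, among them Ciita (-0.67, adjusted p = 0.0365), and 25 in cirrhosis. The log2 fold changes that changed sign were not called in the fits reported. With edgeR, these were RT1-Ba -0.0054, Cd74 -0.064, RT1-Ha -0.26, RT1-Db2 -0.31, RT1-Da -0.051 in cirrhosis, and RT1-S3 -0.12, RT1-A2 -0.023, RT1-A1 -0.12 in fibrosis against acute injury. With DESeq2, these were RT1-Ba -0.0010, Cd74 -0.060, RT1-Ha -0.26, RT1-Db2 -0.31, RT1-Da -0.047 in cirrhosis, and RT1-CE5 -0.0046, RT1-S3 -0.13, RT1-A2 -0.034, RT1-A1 -0.14 in fibrosis against acute injury. With no TMM, these were Ciita 0.087, B2m 0.24 in acute injury, and B2m 0.26 in fibrosis, and Cd40 0.13, RT1-Db1 0.24, Nlrc5 0.22 in cirrhosis, and RT1-S3 -0.028, Cd80 -0.011, RT1-A2 -0.015 in fibrosis against acute injury, and Tapbp -0.064 in cirrhosis against fibrosis. With the replicate block, these were RT1-Ha -0.073, RT1-Db2 -0.026 in cirrhosis. With a minimum of 10 counts, these were RT1-CE16 0.00094 in fibrosis against acute injury. With 1 library left out the ranges that crossed 0 were Ciita -0.53 to 0.076 in acute injury, and RT1-Ba -0.044 to 0.55, Ciita -0.10 to 0.56, Cd74 -0.058 to 0.60, RT1-Ha -0.11 to 0.46, RT1-Db2 -0.20 to 0.43, RT1-Da -0.11 to 0.45, RT1-Db1 -0.41 to 0.21, Nlrc5 -0.31 to 0.12 in cirrhosis, and RT1-DOb -0.19 to 0.41, RT1-CE5 -0.13 to 0.27, RT1-S3 -0.19 to 0.33, Cd80 -0.073 to 0.16, B2m -0.034 to 0.18, RT1-A2 -0.15 to 0.24, RT1-A1 -0.070 to 0.61, RT1-CE16 -0.50 to 0.30, RT1-CE10 -0.27 to 0.30 in fibrosis against acute injury, and Tapbp -0.049 to 0.17 in cirrhosis against fibrosis. The cause of these changes was not tested. A few counts per library limit RT1-Ha, RT1-DOa, RT1-DOb and RT1-DMa.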
